A study of Mus musculus with 24 samples.

Results

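The 43 cell cycle and DNA replication genes described here were taken by name from the rows of 2 deposited TPM tables of mouse macrophage RNA, one with 22996 genes and one with 54380 genes, and all 43 were found in both. They comprise 15 replication genes, 9 genes of G1 and of entry into S phase, 17 genes of mitosis and 2 inhibitors of cyclin-dependent kinases (CDKs). The 15 replication genes are the helicase subunits Mcm2 to Mcm7, then Mcm10, Pcna, Cdc6, Cdt1 and Gmnn, and the nucleotide synthesis enzymes Rrm1, Rrm2, Tyms and Tk1. The 9 G1 genes are E2f1, E2f2, Cdk2, Cdk4, Ccnd1, Ccnd2, Ccnd3, Ccne1 and Ccne2. The mitosis genes are Cdk1 and the cyclins Ccna2, Ccnb1 and Ccnb2, with Top2a, Mki67, Aurka, Aurkb, Birc5, Kif11, Bub1, Bub1b, Plk1, Cdc20, Cenpe, Cenpf and Ube2c. The inhibitors are Cdkn1a and Cdkn1b.

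There were 24 libraries in 8 groups of 3, from a series on the co-repressors CtBP1 and CtBP2 in macrophage inflammation. Bone marrow-derived macrophages (BMDMs) came from male C57BL6/N mice aged 6 to 12 weeks, were differentiated in medium with L929 supernatant until day 6 and were then seeded in serum-free macrophage medium. They carried Ctbp2 siRNA, Ctbp1 siRNA or control siRNA, and each siRNA was given either 100 ng/ml lipopolysaccharide (LPS), the endotoxin of Gram-negative bacteria, or PBS vehicle for 4 h. The other 2 groups were J774.1 cells, a female BALB/c macrophage line that divides in culture, labelled Ctbp1/2 double-knockout or wildtype, and both received 4 h of 100 ng/ml LPS, so the line has no vehicle group. The labels do not say whether the double-knockout cells are 1 clone. Replicates are described as biological, with no word on separate cultures or animals, so p-values measure the spread between these samples, which may be technical. TPM, a transcript abundance, divides each gene's signal by its length and scales every library to the same total, so it keeps no depth and counting error is unknown.

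Before S phase, the proteins Cdc6 and Cdt1 load the Mcm2 to Mcm7 helicase onto replication origins, and geminin, the product of Gmnn, binds Cdt1 and keeps origins from being loaded again. D-type cyclins with Cdk4 and cyclin E with Cdk2 inactivate the retinoblastoma protein and release E2F factors, which switch on replication genes. Cyclins A and B with Cdk1 then drive mitosis, whose genes are switched on later in the cycle by the MuvB complex with B-Myb and FoxM1. Macrophages grown from bone marrow divide in response to the growth factor M-CSF, which L929 supernatant contains, and LPS is known to stop this division.

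Promoters are shown first, because these element classes are known for cell cycle genes and most members changed in the same direction with LPS. Windows of 300 bases, 250 before to 50 after the gene start, were taken from RefSeq on GRCm38.p6, and 36 of the 43 members have an entry, with 40 windows. Mcm4, Gmnn, Ccnd1, Ccnd2, Ccne2, Ccna2 and Aurkb are named only. Each window was searched on both strands for TTTNNCGC, the core letters of E2F sites, for TTTGAA, the core of the cell cycle homology region that MuvB binds, and for CCAAT, the letters of NF-Y sites. TTTNNCGC was in 7 of 14 windows of replication members (50.0%), in 1 of 15 windows of mitosis members (6.67%) and in 5.17% of all 32851 windows in the table. TTTGAA was in 1 of 14 windows of replication members (7.14%), in 11 of 15 windows of mitosis members (73.3%) and in 17.9% of all windows. CCAAT was in 71.4% of replication windows, 93.3% of mitosis windows and 37.4% of all windows. Of the 8 windows of G1 members, 12.5% held TTTGAA, 25.0% TTTNNCGC and 50.0% CCAAT, and the 3 windows of CDK inhibitors held neither TTTGAA nor TTTNNCGC. Matches of TTTNNCGC and CCAAT overlapped each other in 1 of the 40 windows, and TTTGAA overlapped neither of the others in any. The window of Cdk1 was the single one with both TTTGAA and TTTNNCGC; E2f2 held them in separate windows. Capitals mark TTTGAA and TTTNNCGC on either strand in the windows printed, which are 3 of replication members, 3 of mitosis members and that of Cdk1. Every window printed holds a match, which not every window of these roles does, such as those of Pcna, Rrm1, Birc5 and Bub1. Cdt1 lies at chr8:122567765-122568064 on the plus strand, Mcm6 at chr1:128359656-128359955 on the minus strand, Cdc6 at chr11:98907901-98908200 on the plus strand and Cdc20 at chr4:118437294-118437593 on the minus strand. Plk1 lies at chr7:122159185-122159484 on the plus strand, Top2a at chr11:99024140-99024439 on the minus strand and Cdk1 at chr10:69352863-69353162 on the minus strand. A match describes the letters of the window, not a bound site, and no match says only that these letters are absent from it.
Cdt1: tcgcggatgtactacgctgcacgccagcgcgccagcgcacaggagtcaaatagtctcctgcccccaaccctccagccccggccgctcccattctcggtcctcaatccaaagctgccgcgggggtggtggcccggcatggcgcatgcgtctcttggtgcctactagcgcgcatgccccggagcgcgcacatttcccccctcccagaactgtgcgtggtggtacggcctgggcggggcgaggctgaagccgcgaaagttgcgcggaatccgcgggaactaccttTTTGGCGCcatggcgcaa
Mcm6: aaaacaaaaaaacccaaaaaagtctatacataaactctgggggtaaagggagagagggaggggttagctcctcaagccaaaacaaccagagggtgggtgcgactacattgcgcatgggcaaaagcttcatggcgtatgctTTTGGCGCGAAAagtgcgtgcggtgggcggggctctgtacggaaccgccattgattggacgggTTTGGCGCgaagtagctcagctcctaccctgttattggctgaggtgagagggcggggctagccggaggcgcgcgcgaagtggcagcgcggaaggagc
Cdc6: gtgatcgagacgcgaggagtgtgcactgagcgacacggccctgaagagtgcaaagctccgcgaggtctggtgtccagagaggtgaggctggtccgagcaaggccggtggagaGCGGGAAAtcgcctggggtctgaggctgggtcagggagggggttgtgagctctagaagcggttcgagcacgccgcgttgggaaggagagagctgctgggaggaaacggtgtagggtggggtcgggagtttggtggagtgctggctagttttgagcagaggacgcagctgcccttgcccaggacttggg
Cdc20: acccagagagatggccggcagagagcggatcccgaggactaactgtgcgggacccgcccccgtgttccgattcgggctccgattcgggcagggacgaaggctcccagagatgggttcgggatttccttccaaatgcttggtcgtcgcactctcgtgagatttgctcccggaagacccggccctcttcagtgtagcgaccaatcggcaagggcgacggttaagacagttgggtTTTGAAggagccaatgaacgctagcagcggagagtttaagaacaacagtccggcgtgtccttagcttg
Plk1: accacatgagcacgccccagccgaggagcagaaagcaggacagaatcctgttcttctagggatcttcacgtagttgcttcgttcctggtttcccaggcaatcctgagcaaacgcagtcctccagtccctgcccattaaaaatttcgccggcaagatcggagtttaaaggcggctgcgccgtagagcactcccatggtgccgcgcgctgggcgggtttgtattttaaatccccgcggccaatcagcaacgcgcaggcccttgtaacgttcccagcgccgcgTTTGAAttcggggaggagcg
Top2a: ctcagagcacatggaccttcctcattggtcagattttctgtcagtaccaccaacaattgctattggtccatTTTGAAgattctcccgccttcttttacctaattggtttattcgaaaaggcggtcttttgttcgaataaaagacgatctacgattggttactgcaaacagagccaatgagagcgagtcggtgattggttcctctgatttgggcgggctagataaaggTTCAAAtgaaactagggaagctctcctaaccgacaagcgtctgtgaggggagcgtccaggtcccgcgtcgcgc
Cdk1: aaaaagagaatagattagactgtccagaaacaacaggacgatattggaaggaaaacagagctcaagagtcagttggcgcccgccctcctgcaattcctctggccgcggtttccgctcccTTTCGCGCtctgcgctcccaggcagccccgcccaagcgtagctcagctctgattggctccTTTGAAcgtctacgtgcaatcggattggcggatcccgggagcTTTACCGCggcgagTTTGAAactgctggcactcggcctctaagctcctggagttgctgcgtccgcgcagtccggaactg

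The siRNA targets were lower in the libraries that carry their labels. Ctbp2 was 12.1 ± 1.7 TPM in Ctbp2 siRNA cells with LPS, against 38.2 ± 1.82 TPM in control siRNA cells with LPS, and 18.2 ± 1.95 against 52.6 ± 1.41 TPM in vehicle. Ctbp1 was 50.8 ± 4.46 TPM in Ctbp1 siRNA cells with LPS, against 123 ± 7.33 TPM in control siRNA cells with LPS, and 57.3 ± 1.96 against 138 ± 7.12 TPM in vehicle (SD, n = 3 for each). In J774.1 cells Ctbp1 was 19.9 ± 3.3 TPM in double-knockout and 161 ± 3.81 TPM in wildtype cells, and Ctbp2 63.1 ± 1.38 and 78.2 ± 3.52 TPM, that is 80.7% of wildtype (SD, n = 3). A TPM of the whole gene does not show how a gene was altered, so the Ctbp2 value does not check that label. All 7 macrophage markers reached 1 TPM in every BMDM group, with sums of 10801 to 14343 TPM, and 6 of the 7 did in J774.1 cells, where sums were 1526 to 1637 TPM in double-knockout and 1403 to 1425 TPM in wildtype cells and Mertk was at 0 in wildtype cells. None of 7 markers of bone marrow progenitors reached 1 TPM in any group, and their sums were at most 1.75 TPM. Of 6 neutrophil markers 5 reached 1 TPM in every BMDM group, with sums of 86.7 to 138 TPM in control siRNA cells with LPS against 65.9 to 127 TPM in vehicle, while Ly6g was at 0 in 4 of the 6 BMDM groups. Stromal markers and those lymphocyte markers that were found had no mean of 1 TPM, except for the stromal gene Pdgfrb, which averaged 6.25 TPM in control siRNA cells with LPS against 0.0657 TPM in vehicle. The part of these cell types in the results was not tested. Replicate 4 of control siRNA with LPS stood apart from replicates 1 and 3: its median change from vehicle was −0.33 on the log2 scale over the 17 mitosis genes, against −0.78 and −0.74 for the other two, and −0.79 against −1.25 and −1.09 over the 15 replication genes. Results that use this group are also given without it where a call changes.

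Most of these genes were lower with LPS in BMDMs. In control siRNA cells, 36 of the 43 members fell with LPS, 3 rose and 4 were not called by limma on log2(TPM + 1) with Benjamini-Hochberg adjustment over all 12146 genes tested, at an adjusted p under 0.05. Of all genes tested, 53.6% were called lower and 18.6% higher in the same comparison. The median log2 change was −0.81 over the members and −0.29 over all genes. Replication genes had a median of −1.03 with 14 of 15 lower, G1 genes −0.98 with 7 of 9 lower and 1 higher, and mitosis genes −0.61 with 14 of 17 lower and 1 higher. For 38 of the 43 members the 3 LPS and the 3 vehicle values did not overlap, as for 74.0% of all genes tested. TPM moved the median of all genes, so values were also scaled by the median of ratios, which puts it at 0.01. Then 31 members were lower and 4 higher, while over all genes the calls were 3850 lower and 4191 higher, in place of 6514 and 2258, that is 31.7% lower and 34.5% higher. On that scale 14 of 15 replication genes were lower with a median of −0.71, and mitosis genes had 10 lower and 2 higher with a median of −0.31. In bulk RNA, fewer dividing cells and less RNA of these genes per cell cannot be told apart.

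**Figure D1:**
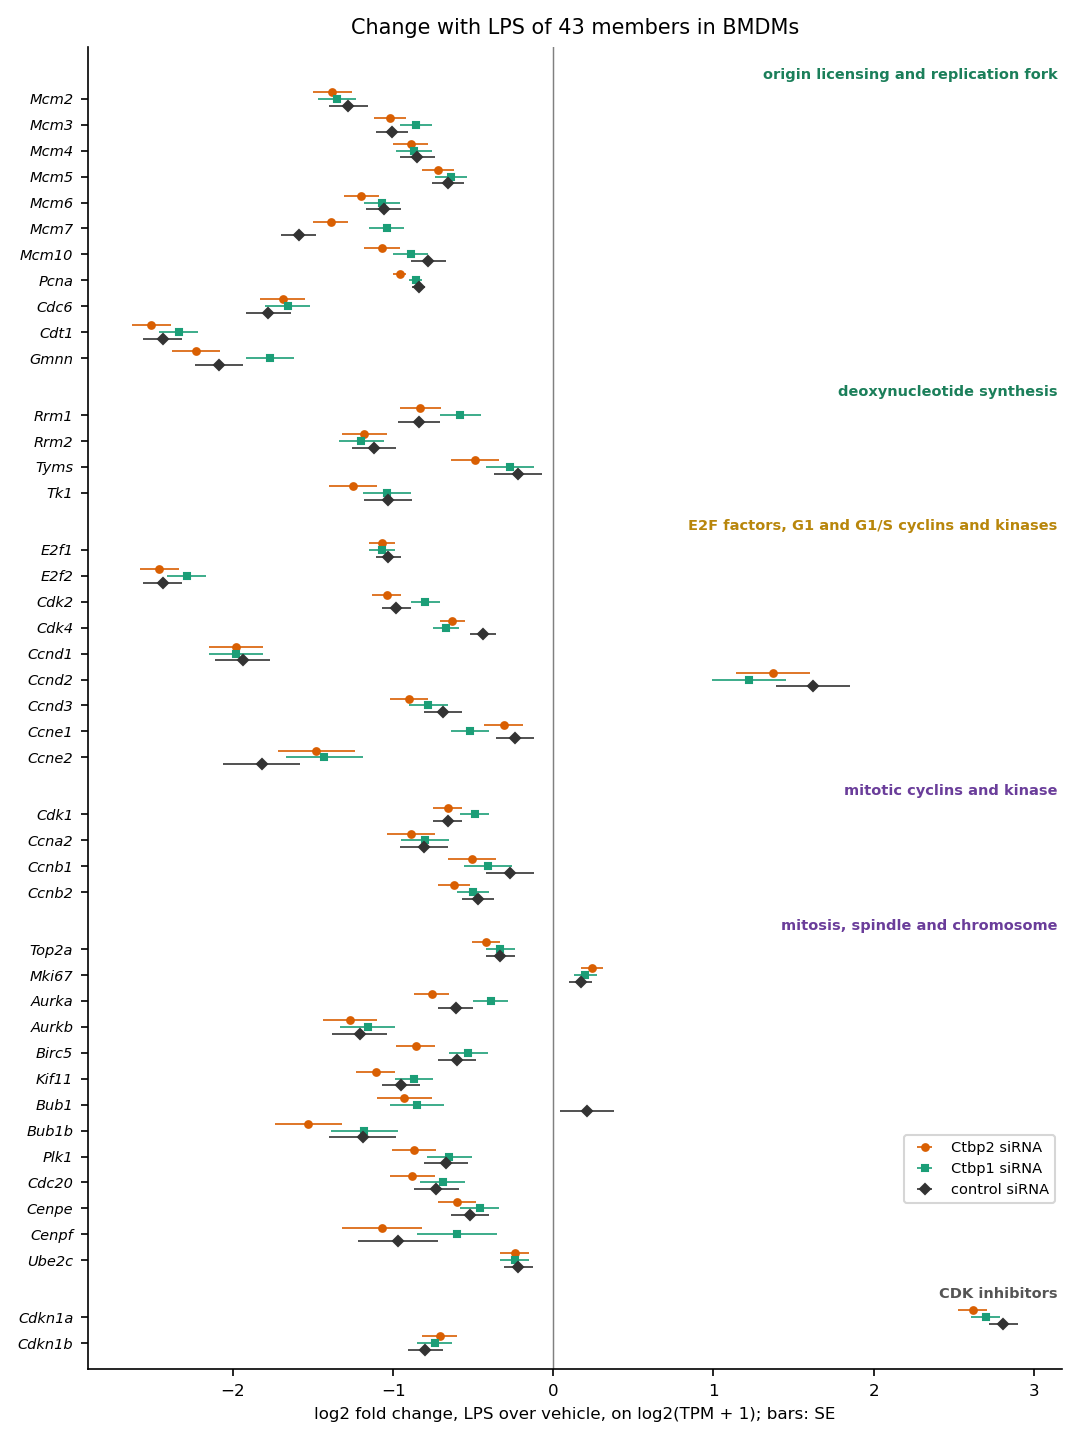
Log2 fold change, LPS over vehicle, of the 43 members (rows, grouped by role) in BMDMs with Ctbp2 siRNA, Ctbp1 siRNA or control siRNA, from limma on log2(TPM + 1), with bars of 1 SE. Nearly all points lie left of 0. The median of the replication genes lies further left than that of the mitosis genes, though single genes of these roles overlap. Cdkn1a, Ccnd2 and Mki67 lie right of 0 under each siRNA, as does Bub1 under control siRNA alone, where it was not called.

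The loading factors of replication origins changed most among the replication genes. Cdt1 had 5.51, 5.62 and 8.07 TPM with LPS, against 38.2, 41.8 and 36.4 TPM with vehicle, in control siRNA replicates 1, 3 and 4. All LPS values lay far below all vehicle values, and the log2 change was −2.44 (SE 0.12, limma adjusted p = 2.69e-11). Gmnn, its inhibitor, had 9.44, 8.62 and 14.9 TPM with LPS, against 48.1, 49.9 and 48.3 TPM with vehicle. The LPS values were again well below the vehicle values, with replicate 4 the highest of them (log2 −2.09, SE 0.15, limma adjusted p = 2.9e-09). Cdc6, which brings Cdt1 and the helicase to the origin, was low throughout, with 0.627, 0.417 and 0.758 TPM with LPS, against 3.55, 4.83 and 5.17 TPM with vehicle. The groups did not overlap, and the log2 change of −1.78 (SE 0.14, limma adjusted p = 8.82e-09) understates the ratio of a gene this low, whose mean with LPS was 13.3% of that with vehicle.

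The helicase itself fell as a whole. All 6 of Mcm2 to Mcm7 were lower, with log2 changes of −1.59 to −0.66 and a median of −1.03. Mcm7 changed most, with 10.1, 9.8 and 13.5 TPM with LPS, against 34.9, 36.9 and 33.7 TPM with vehicle, and the groups were well apart (log2 −1.59, SE 0.11, limma adjusted p = 2.51e-09). Mcm2 was at −1.28, Mcm6 at −1.06, Mcm3 at −1.01, Mcm4 at −0.85 and Mcm5 at −0.66, and Mcm10, which helps start the fork, at −0.78. Pcna, the sliding clamp of the replication fork and the most abundant of the 11 origin and fork genes, averaged 413 TPM with LPS and 741 TPM with vehicle, and its groups did not overlap (log2 −0.84, SE 0.04, limma adjusted p = 2.69e-12).

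Of the 4 genes of nucleotide synthesis, 3 fell. Rrm2, the small subunit of ribonucleotide reductase that is made for S phase, had 14.9, 17.1 and 21.7 TPM with LPS, against 35.2, 44.3 and 40.0 TPM with vehicle. Those groups did not overlap (log2 −1.12, SE 0.14, limma adjusted p = 1.63e-06). Tk1, thymidine kinase, had 14.6, 16.2 and 21.8 TPM with LPS, against 34.8, 37.1 and 37.0 TPM with vehicle, also without overlap (log2 −1.03, limma adjusted p = 1.23e-05). Rrm1, the large subunit, had 21.7, 23.8 and 33.0 TPM with LPS, against 44.6, 44.1 and 52.0 TPM with vehicle, and its LPS replicate 4 came nearest to the vehicle values (log2 −0.84). Tyms, thymidylate synthase, was not called (log2 −0.22, 95% interval −0.54 to 0.10, limma adjusted p = 0.196).

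Among the G1 genes, cyclin D2 rose while most others fell. E2f2, an activating E2F factor, had 0.715, 0.616 and 1.28 TPM with LPS, against 8.80, 9.24 and 9.03 TPM with vehicle, in control siRNA cells. The LPS group lay far below the vehicle group (log2 −2.44, SE 0.12, limma adjusted p = 3.31e-11), at a mean of 9.63% of it. Ccnd1, cyclin D1, the main D-type cyclin of these cells by TPM, had 32.4, 38.3 and 54.3 TPM with LPS, against 142, 178 and 159 TPM with vehicle. All LPS values were lower (log2 −1.94, SE 0.17, limma adjusted p = 5.09e-08). Ccne2, a cyclin E, had 1.47, 3.28 and 2.81 TPM with LPS, against 7.93, 16.3 and 10.6 TPM with vehicle, and both groups were spread but apart (log2 −1.82, limma adjusted p = 3.57e-06). Ccnd2, cyclin D2, went the other way, with 7.05, 12.3 and 5.55 TPM with LPS, against 1.98, 2.09 and 1.65 TPM with vehicle. Each LPS library exceeded each vehicle library (log2 1.62, SE 0.23, limma adjusted p = 1.02e-05). E2f1 (−1.03), Cdk2 (−0.98), Ccnd3 (−0.69) and Cdk4 (−0.44) were lower too, and Ccne1 was not called (−0.24, 95% interval −0.50 to 0.02, limma adjusted p = 0.0905), though it was without LPS replicate 1 (−0.35, 0.0211). Cdk4 was not called with median-of-ratios scaling (−0.12, limma adjusted p = 0.149).

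The median change of the mitosis genes was smaller than that of the replication genes, a difference that was not tested, and 3 of the 17 were not called lower. Cdk1, the mitotic kinase, had 52.4, 54.8 and 67.3 TPM with LPS, against 82.2, 98.8 and 96.3 TPM with vehicle, in control siRNA cells. There was no overlap between these groups (log2 −0.66, SE 0.09, limma adjusted p = 9.59e-06). Ccna2, cyclin A2, had 16.0, 19.7 and 23.8 TPM with LPS, against 31.3, 39.5 and 34.9 TPM with vehicle, all LPS values being lower (log2 −0.81, limma adjusted p = 0.000141). Ccnb2 had 23.9, 29.6 and 30.7 TPM with LPS, against 35.0, 43.2 and 39.5 TPM with vehicle, again with LPS lower in every library (log2 −0.47, limma adjusted p = 0.000634; −0.15 and 0.172 with median-of-ratios scaling), while Ccnb1 was not called (−0.27, 95% interval −0.59 to 0.05, limma adjusted p = 0.115). Without LPS replicate 4, Ccnb1 was called too (−0.48, limma adjusted p = 0.00249).

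The largest falls among the spindle and chromosome genes were those of Aurkb, Bub1b, Cenpf and Kif11. Aurkb, the kinase that corrects chromosome attachment, had 7, 8.84 and 13.9 TPM with LPS, against 23.4, 22.6 and 24.4 TPM with vehicle, the LPS libraries lying lower but spread (log2 −1.21, SE 0.17, limma adjusted p = 6.1e-06). Bub1b, a spindle checkpoint protein, had 7.79, 6.72 and 14.8 TPM with LPS, against 20.4, 24.7 and 22.0 TPM with vehicle, without overlap (log2 −1.19, SE 0.21, limma adjusted p = 9.53e-05). Cenpf, a kinetochore protein, had 1.91, 2.50 and 5.20 TPM with LPS, against 5.96, 7.46 and 7.05 TPM with vehicle, and LPS replicate 4 nearly reached the lowest vehicle library (log2 −0.97, limma adjusted p = 0.00231). Kif11, the motor that separates the spindle poles, had 7.43, 6.96 and 9.75 TPM with LPS, against 14.5, 16.7 and 18 TPM with vehicle, clearly apart (log2 −0.95, limma adjusted p = 3.67e-06).

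Cdc20 (−0.73), Plk1 (−0.67), Aurka (−0.61), Birc5 (−0.60), Cenpe (−0.52) and Top2a (−0.33) were lower as well, and so was Ube2c (−0.22), whose direction turned to 0.10 with median-of-ratios scaling. Top2a, which untangles chromosomes, overlapped between groups and was no longer called on that scale (−0.01), nor was Cenpe (−0.22, limma adjusted p = 0.0825). Ube2c was also not called without control siRNA LPS replicate 1 or 3, without vehicle replicate 3 or 4, or without Ctbp1 siRNA LPS or vehicle replicate 4 (limma adjusted p of 0.0507 to 0.166). Nor was it called with no minimum TPM or when only the groups compared were fitted (limma adjusted p = 0.078 and 0.069). Mki67, whose product Ki-67 coats mitotic chromosomes, had 49.0, 49.2 and 49.6 TPM with LPS, against 38.3, 47.8 and 45.2 TPM with vehicle. The LPS libraries were slightly higher (log2 0.17, SE 0.07, limma adjusted p = 0.0291), but the call was lost without LPS replicate 1, 3 or 4 or vehicle replicate 1 (limma adjusted p of 0.0545 to 0.207). It was also lost when only the groups compared were fitted (limma adjusted p = 0.0996). Mki67 was called higher with median-of-ratios scaling, and the authors' deposited table also has it higher (log2 0.50). Bub1, a checkpoint kinase, had 4.73, 5.16 and 6.83 TPM with LPS, against 4.96, 4.06 and 4.90 TPM with vehicle, and these overlapped (log2 0.21, 95% interval −0.14 to 0.57, limma adjusted p = 0.269). With median-of-ratios scaling Bub1 was called higher (0.48, limma adjusted p = 0.0147).

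The CDK inhibitors moved in opposite directions. Cdkn1a, which encodes p21, had 2535, 2499 and 1849 TPM with LPS, against 300, 338 and 330 TPM with vehicle, in control siRNA cells. Its LPS values were several times all vehicle values (log2 2.81, SE 0.09, limma adjusted p = 6.79e-14), a ratio of means of 7.11, and LPS replicate 4 was the lowest of them. Cdkn1b, which encodes p27, had 18.9, 19.6 and 13.5 TPM with LPS, against 28.8, 30.7 and 31.9 TPM with vehicle, all lower with LPS (log2 −0.80, SE 0.11, limma adjusted p = 6.27e-06).

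**Figure D2:**
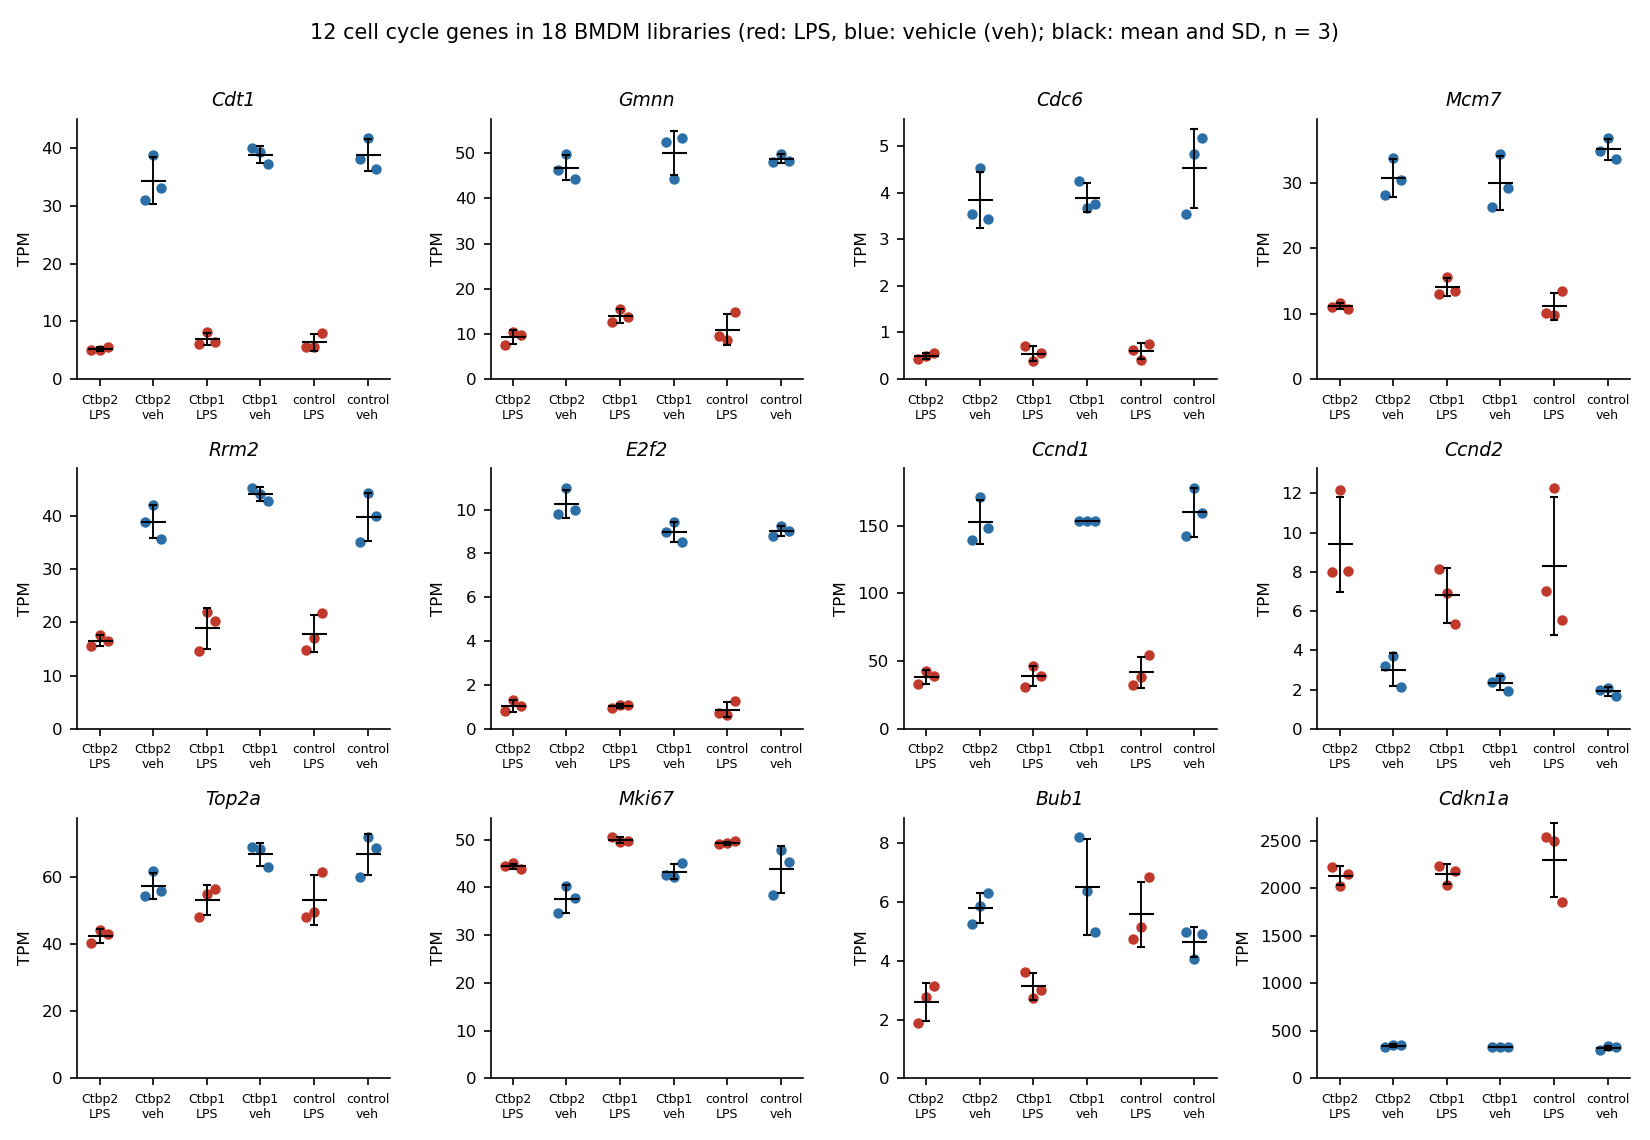
TPM of 12 members in each of the 18 BMDM libraries (points), by siRNA and treatment, with mean and SD (n = 3); red is LPS and blue vehicle, and each axis starts at 0. LPS and vehicle points are apart under every siRNA for Cdt1, Gmnn, Cdc6, Mcm7, Rrm2, E2f2, Ccnd1 and Cdkn1a, while Top2a and Mki67 differ little and Bub1 is lower with LPS under Ctbp2 and Ctbp1 siRNA but not under control siRNA.

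Other genes of the same processes also fell in control siRNA cells, where 53.6% of all genes tested were called lower and 18.6% higher. Of 37 other replication genes 31 fell (median log2 −0.77), led by Pold1, the catalytic subunit of DNA polymerase delta, at 5.23 ± 1.72 TPM with LPS against 19.3 ± 1.77 TPM with vehicle, Pole2 (log2 −1.65) and Uhrf1 (log2 −1.46). Of 39 other mitosis genes 33 fell (median −0.63), led by Cdc25b, a phosphatase that activates Cdk1, at 7.35 ± 2.78 against 32.6 ± 0.449 TPM, Kif23 (−1.60) and Ccnf (−1.42). Of 11 other E2F, DP and pocket protein genes, 7 fell and 4 rose, and Tfdp2 (−1.58), E2f7 (−1.33) and Rb1 (−1.11) changed most. Among 6 other CDK inhibitor and G1 kinase genes 1 rose and 3 fell, shares near those of all genes. The one that rose was Cdkn2b, which encodes the Cdk4 inhibitor p15, at 44.2 ± 4.82 TPM with LPS against 6.72 ± 1.55 TPM with vehicle (log2 2.57, limma adjusted p = 5.82e-11), and Cdkn2c (−1.29) and Cdkn2d (−0.95) fell. Cdkn1a is also a target of p53, and of 13 other p53 targets tested 5 rose and 5 fell, and the largest changes were falls of Sesn1 (−2.26), Trp53inp1 (−2.19) and Bbc3 (−1.50). Myc, which drives growth, fell (−0.91), while Csf1r, the M-CSF receptor, rose slightly (0.27; means ± SD, n = 3, limma adjusted p under 0.05 for each gene said to rise or fall).

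Most members were lower with LPS in cells with Ctbp2 or Ctbp1 siRNA too. With Ctbp2 siRNA, 40 members fell and 3 rose (all genes tested: 55.3% lower and 18.6% higher), with medians of −1.18 for replication, −1.04 for G1, −0.86 for mitosis and −0.32 for all genes. With Ctbp1 siRNA, 39 fell, 3 rose and Tyms was not called (all genes tested: 51.1% lower and 19.4% higher), with medians of −1.04 for replication, −0.80 for G1, −0.53 for mitosis and −0.26 for all genes. These 3 tests use separate libraries but share 1 estimate of the spread from the same fit, so they are not fully independent. In all of them 36 members were called lower, as were 46.1% of all genes tested. Of these 36, Aurka, Birc5, Ccnb2, Cdk1, Cenpe, Cenpf, Top2a and Ube2c lost the call under Ctbp1 siRNA with median-of-ratios scaling (limma adjusted p of 0.0565 to 0.724). Cenpf and Ube2c also lost it under Ctbp1 siRNA when some single libraries were left out. Cdkn1a, Ccnd2 and Mki67 were called higher in all 3, as were 16.1% of all genes tested. Cdt1 had 5.03, 5.02 and 5.53 TPM with LPS against 31.1, 38.9 and 33.2 TPM with vehicle under Ctbp2 siRNA, and 6.11, 8.19 and 6.51 against 40.1, 39.3 and 37.3 TPM under Ctbp1 siRNA. Under both, all LPS values lay far below all vehicle values. Cdkn1a had 2220, 2024 and 2146 TPM with LPS against 332, 355 and 347 TPM with vehicle under Ctbp2 siRNA, and 2235, 2033 and 2180 against 333, 329 and 327 TPM under Ctbp1 siRNA. The rise was again larger than any spread among replicates. With median-of-ratios scaling, 35 members were lower and 3 higher under Ctbp2 siRNA, and 29 lower and 3 higher under Ctbp1 siRNA, where 14 of 15 replication and 7 of 17 mitosis genes were called lower. On that scale 32.8% of all genes tested were lower and 35.0% higher under Ctbp2 siRNA, and 31.2% and 33.7% under Ctbp1 siRNA. The authors' deposited table, at an adjusted p under 0.05, has 35 members lower and 3 higher with Ctbp2 siRNA, 29 and 3 with Ctbp1 siRNA and 30 and 3 with control siRNA. Of all genes with an adjusted p in the authors' deposited table, 25.0% were lower and 26.3% higher with Ctbp2 siRNA, 24.4% and 26.3% with Ctbp1 siRNA, and 24.3% and 25.8% with control siRNA.

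**Figure D3:**
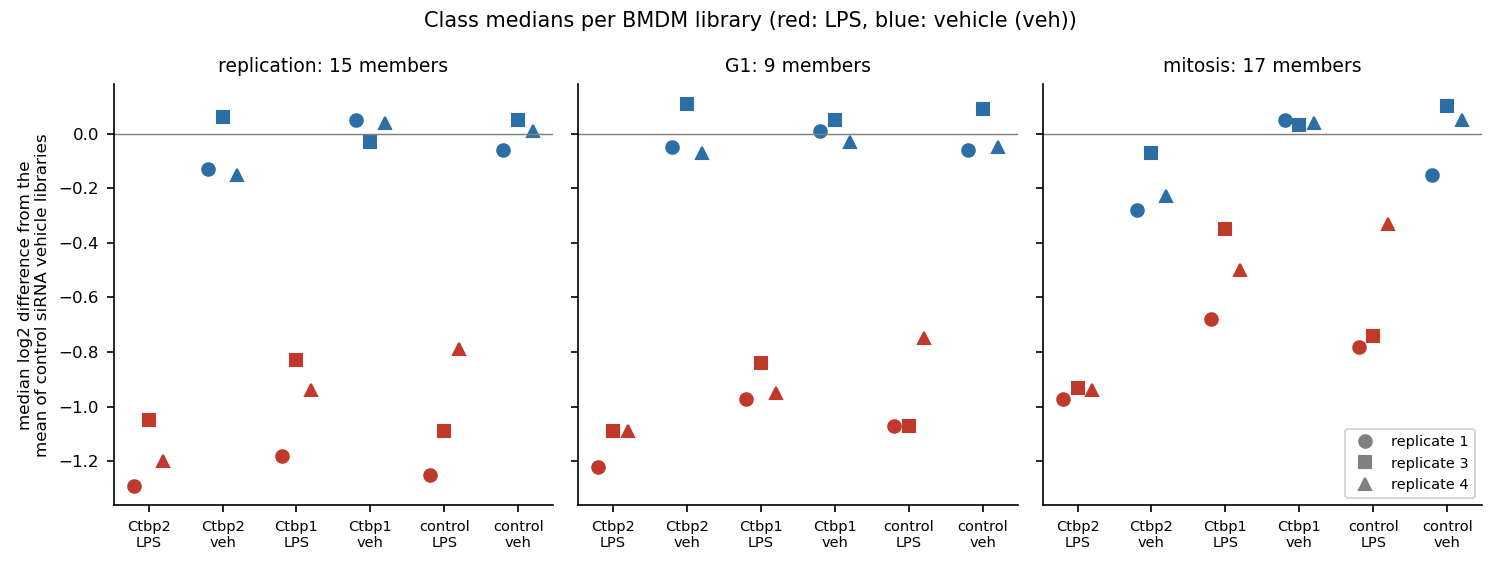
Median log2 difference from the mean of the 3 control siRNA vehicle libraries, over 15 replication, 9 G1 and 17 mitosis members, for each of the 18 BMDM libraries (red LPS, blue vehicle, marker shape by replicate number). Control siRNA LPS replicate 4 is the highest LPS point of its group in each panel, at −0.79, −0.75 and −0.33.

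Whether siRNA against either co-repressor changed the members was asked within each treatment. The siRNA comparisons share the control siRNA libraries of their treatment. Ctbp2 siRNA against control siRNA gave 1 called member in LPS and 0 in vehicle, where 1.94% and 0.568% of all genes tested were called. The called member was Bub1, with 1.87, 2.78 and 3.13 TPM in Ctbp2 siRNA cells with LPS, against 4.73, 5.16 and 6.83 TPM in control siRNA cells with LPS. All Ctbp2 siRNA values were lower (log2 −0.87, SE 0.17, 95% interval −1.23 to −0.52, limma adjusted p = 0.0145). The authors' deposited table has Bub1 as its only called member there too (log2 −1.03, adjusted p = 0.0235), with 4.23% of all its genes called. The call was lost without control siRNA LPS replicate 4 (log2 −0.74, limma adjusted p = 0.059) or Ctbp2 siRNA LPS replicate 1 (−0.72, 0.0733), and when only these 2 groups were fitted (limma adjusted p = 0.208).

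All 17 mitosis genes had estimates below 0 with Ctbp2 siRNA in LPS, at a median of −0.31 on the log2 scale, against −0.17 for replication genes and −0.06 for all genes, of which 68.1% had estimates below 0. Of the 17, 10 had an unadjusted limma p under 0.05, as did 1 of 15 replication genes and 17.5% of all genes tested. Top2a had 40.1, 44.1 and 42.9 TPM in Ctbp2 siRNA cells, against 47.9, 49.6 and 61.4 TPM in control siRNA cells with LPS, without overlap but not called (log2 −0.31, 95% interval −0.50 to −0.11, limma adjusted p = 0.0999). With the replicate number as a block in the fit, Top2a was called (log2 −0.31, limma adjusted p = 0.0483). Plk1 was at −0.40 (limma adjusted p = 0.164), Ccnb1 at −0.43 (0.155) and Birc5 at −0.40 (0.106). Without control siRNA LPS replicate 4 the median of the mitosis genes was −0.16, 3 of them had an unadjusted limma p under 0.05, against 13.0% of all genes, and Cdkn1a was the called member instead (log2 −0.24, limma adjusted p = 0.0402). In that setting 52 of all 12162 genes tested were called higher and 93 lower. In vehicle 16 of the 17 mitosis genes had estimates below 0 (median −0.18; all genes −0.04, with 63.4% below 0). There 2 members had an unadjusted limma p under 0.05, Mki67 (−0.21) and Top2a (−0.21), against 11.5% of all genes tested. The authors' deposited table has 0 called of 37 members with an adjusted p, and 2.85% of all genes.

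Ctbp1 siRNA against control siRNA gave 0 called members in LPS and 0 in vehicle by limma, where 0.0576% and 0.107% of all genes tested were called. At an unadjusted limma p under 0.05 there were 4 in LPS and 3 in vehicle, shares near the 7.34% and 8.92% of all genes tested. The authors' deposited table has 0 of 43 and 0 of 33 with an adjusted p, where 0.277% and 1.72% of all genes were called. The 95% interval stayed within a 1.5-fold change either way for 38 of the 43 members in LPS and 40 in vehicle; with Ctbp2 siRNA it did for 31 in LPS and 39 in vehicle. Bub1 had 3.63, 2.74 and 3.00 TPM in Ctbp1 siRNA cells with LPS, all below the 4.73, 5.16 and 6.83 TPM of control siRNA cells, but missed the threshold (log2 −0.67, limma adjusted p = 0.316). Without control siRNA LPS replicate 4, Gmnn was called higher with Ctbp1 siRNA (0.58, limma adjusted p = 0.0348; 0.35 and 0.619 with it), and 17 members had an unadjusted limma p under 0.05, against 14.0% of all genes. In that setting 59 of all 12162 genes tested were called higher and 24 lower.

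A change of the LPS response itself was tested as an interaction of siRNA with LPS. No member was called for Ctbp2 or Ctbp1 siRNA by limma, where 0.0329% and 0.0% of all genes tested were called, and 2 members in each had an unadjusted p under 0.05, against 7.57% and 6.27% of all genes. Bub1 was one of these in both, with an interaction of −1.15 (95% interval −1.65 to −0.64, limma adjusted p = 0.125) for Ctbp2 siRNA and −1.06 (−1.56 to −0.55, 0.262) for Ctbp1 siRNA, which share the control siRNA libraries. In vehicle, Bub1 had 5.26, 5.85 and 6.29 TPM with Ctbp2 siRNA, 8.20, 6.36 and 4.96 TPM with Ctbp1 siRNA and 4.96, 4.06 and 4.90 TPM with control siRNA. It was thus lower with LPS under either targeting siRNA (log2 −0.93 and −0.85) and not called under control siRNA. The other two were Pcna for Ctbp2 siRNA (−0.12, limma adjusted p = 0.578) and Mcm7 for Ctbp1 siRNA (0.55, 0.475).

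In J774.1 cells with LPS, most mitosis genes and several cyclins were lower in double-knockout cells, while 4 of the 6 genes Mcm2 to Mcm7 missed the threshold. Of 42 members tested (Ccnd2, at a mean of 0.0563 TPM, fell under the minimum of 1 TPM), 24 were lower, 2 higher and 16 not called, against 13.2% lower and 23.0% higher of the 11818 genes tested. The median log2 change was −0.19 over members and 0.05 over all genes. Mitosis genes had 13 of 17 lower (median −0.34), G1 genes 4 of 8 lower (−0.17) and replication genes 6 of 15 lower and 2 higher (−0.09). With median-of-ratios scaling the calls over all genes were 2295 lower and 2146 higher in place of 1555 and 2713, that is 19.4% and 18.2%, and those of members 27 lower and 2 higher. The authors' deposited table has 30 members lower and 2 higher, which include all 26 called here and add Mcm2, Mcm7, Pcna, Cdk2, Birc5 and Cenpf, with 17.2% of its genes lower and 16.6% higher.

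Cyclin D1 changed most among the members. Ccnd1 had 168, 172 and 173 TPM in double-knockout cells, against 280, 278 and 277 TPM in wildtype cells, and the replicates of each lay close together (log2 −0.70, SE 0.03, limma adjusted p = 9.73e-07). Ccne2 had 9.27, 10.5 and 13 TPM in double-knockout and 18.9, 16.8 and 18.2 TPM in wildtype cells, apart but more spread (log2 −0.68, SE 0.11, limma adjusted p = 0.00269). Cdk4 had 599, 587 and 570 TPM against 660, 672 and 673 TPM, and Ccnd3 had 47.6, 52.6 and 52.1 TPM against 57.9, 59.0 and 56.6 TPM, double-knockout cells first. Both were lower in every double-knockout library, by 0.19 on the log2 scale (limma adjusted p = 0.00097 for Cdk4 and 0.0199 for Ccnd3). The Ccnd3 call was lost without wildtype replicate 1 or 2 (limma adjusted p = 0.0561 and 0.0678).

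Among the mitotic cyclins and their kinase, Cdk1 had 231, 209 and 224 TPM in double-knockout cells, against 313, 329 and 314 TPM in wildtype cells. These groups were well apart (log2 −0.53, SE 0.04, limma adjusted p = 5.66e-05). Ccna2 had 90.4, 83.1 and 90.1 TPM against 110, 118 and 113 TPM, and Ccnb1 had 147, 156 and 154 TPM against 191, 190 and 197 TPM, with every double-knockout value lower (log2 −0.36 and −0.34). Ccnb2 was not called (−0.06, 95% interval −0.17 to 0.05).

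Ube2c, the enzyme that with the anaphase-promoting complex marks cyclin B for destruction, had 206, 212 and 214 TPM in double-knockout cells, against 314, 290 and 283 TPM in wildtype cells, lower in every library (log2 −0.49, SE 0.04, limma adjusted p = 8.14e-05). Kif11 had 34.4, 32.7 and 32.6 TPM against 45.1, 46.8 and 44.6 TPM (log2 −0.44), Top2a 168, 158 and 171 TPM against 220, 225 and 225 TPM (−0.43), and Plk1, the polo kinase, 60.7, 60.3 and 62.2 TPM against 79.5, 82.7 and 83.2 TPM (−0.42). None of these overlapped between the groups. Cenpe (−0.42), Aurkb (−0.41), Aurka (−0.32), Cdc20 (−0.25) and Bub1 (−0.16) were lower too, the last with its call lost without double-knockout replicate 1, 2 or 3 or without wildtype replicate 2 or 3 (limma adjusted p of 0.0694 to 0.0946). Mki67 had 84.9, 77.0 and 82.5 TPM in double-knockout cells, against 95.2, 93.9 and 96.7 TPM in wildtype cells, all lower (log2 −0.22, limma adjusted p = 0.00521). Birc5 (−0.11), Bub1b (−0.07) and Cenpf (−0.19) were not called, but without wildtype replicate 2 Cenpf (limma adjusted p = 0.0429) and Birc5 (0.0354) were called lower. Birc5 was also called lower with median-of-ratios scaling (−0.17, limma adjusted p = 0.0185).

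**Figure D4:**
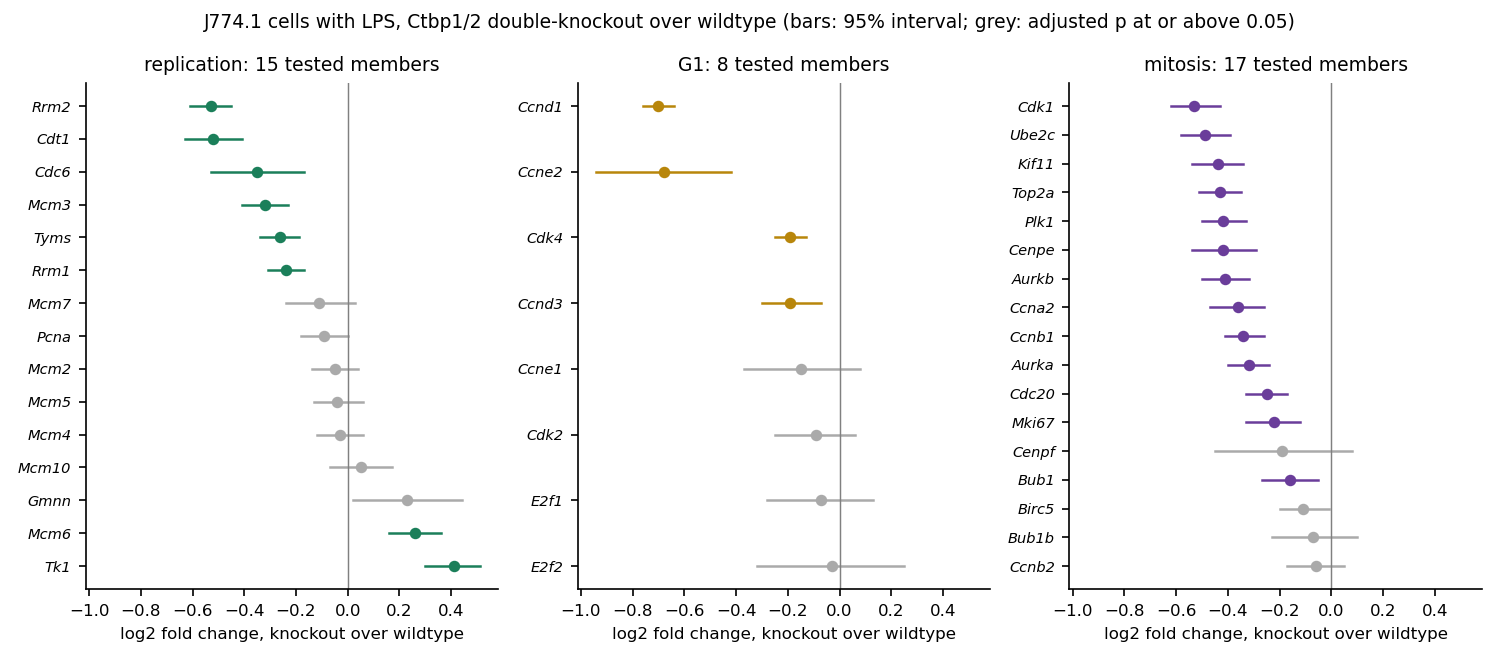
Log2 fold change, Ctbp1/2 double-knockout over wildtype, of 15 replication, 8 G1 and 17 mitosis members in J774.1 cells with LPS, with 95% intervals from limma; coloured members passed an adjusted p under 0.05 and grey ones did not. Rrm2 and Cdt1 lie furthest left among the replication genes, most MCM genes lie near 0, and Mcm6 and Tk1 lie right of 0.

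The replication genes did not move together in J774.1 cells. Rrm2 had 119, 114 and 118 TPM in double-knockout cells, against 170, 173 and 163 TPM in wildtype cells, and Cdt1 had 39.8, 42.5 and 44.1 TPM against 61.1, 62.3 and 58.9 TPM. Both fell to about the same share of wildtype, 69.3%, without overlap (log2 −0.53 and −0.52, limma adjusted p = 1.9e-05 and 0.000138). Cdc6 had 8.53, 7.90 and 7.27 TPM against 9.95, 10.6 and 10.4 TPM, lower in every library (log2 −0.35, limma adjusted p = 0.00958). Tyms had 96.2, 95.5 and 96.3 TPM against 115, 113 and 118 TPM, and Rrm1 had 108, 108 and 105 TPM against 123, 129 and 128 TPM, both lower (log2 −0.26 and −0.24). Of the MCM helicase genes, Mcm3 was lower, with 134, 126 and 125 TPM in double-knockout and 155, 164 and 162 TPM in wildtype cells (log2 −0.32, limma adjusted p = 0.00062), and Mcm6 was higher, with 139, 131 and 130 TPM against 110, 116 and 108 TPM (log2 0.26, limma adjusted p = 0.00214). Neither overlapped between the groups. The other four helicase genes were not called, with estimates of −0.11 for Mcm7, −0.05 for Mcm2, −0.04 for Mcm5 and −0.03 for Mcm4 and 95% intervals that lie between −0.24 and 0.06. Tk1 was higher, with 30.1, 29.0 and 29.9 TPM in double-knockout and 21.7, 22.1 and 22.4 TPM in wildtype cells (log2 0.41, SE 0.04, limma adjusted p = 0.000312). Pcna (−0.09), Mcm10 (0.05) and Gmnn (0.23) were not called. With median-of-ratios scaling, Pcna (−0.15, limma adjusted p = 0.0264) and Mcm2 (−0.11, 0.049) were called lower. Without double-knockout replicate 1, Mcm7 (limma adjusted p = 0.0175), Pcna (0.0215) and the G1 kinase gene Cdk2 (0.0399) were called lower, and without wildtype replicate 3 Gmnn was called higher (0.0217).

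Cdkn1a had 422, 436 and 421 TPM in double-knockout cells, against 447, 451 and 459 TPM in wildtype cells, a small fall (log2 −0.09, limma adjusted p = 0.0333) that missed the threshold without wildtype replicate 1, 2 or 3 or without double-knockout replicate 1 or 3 (limma adjusted p of 0.0581 to 0.115). Cdkn1b had 10.8, 12.8 and 11.4 TPM against 12.8, 10.6 and 9.94 TPM and was not called (log2 0.07, 95% interval −0.17 to 0.31, limma adjusted p = 0.648). Macrophage markers moved in this comparison as well, 5 of 6 tested being higher and 1 lower in double-knockout cells, among them Csf1r at 335 ± 8.05 against 233 ± 6.63 TPM (log2 0.52, limma adjusted p = 1.29e-05). Their part in the results on the members was not tested.

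Other genes of mitosis and replication were lower in double-knockout cells as well, where 13.2% of all genes tested were lower and 23.0% higher. Of 39 other mitosis genes 30 were lower (median −0.30), led by Nuf2, a kinetochore protein, at 36.4 ± 1.6 against 56.4 ± 1.48 TPM, Anln (−0.54) and Kif4 (−0.52). Of 37 other replication genes 14 were lower and 2 higher (−0.13), with Dbf4, the activator of the replication kinase Cdc7, at 45.1 ± 1.2 against 64.1 ± 1.89 TPM, Uhrf1 (−0.45) and Orc1 (−0.44). E2f6, a repressor E2F, was lower at 16.0 ± 1.13 against 30.3 ± 1.18 TPM (log2 −0.88, limma adjusted p = 3.31e-05), as were E2f8 (−0.39) and Tfdp1 (−0.18). Cdkn2c (−0.55) and Cdkn2d (−0.34) were lower and Cdk6, a D-cyclin kinase, higher (0.30). Of the p53 targets, Bbc3 (−1.01) and Sesn2 (−0.63) were lower and Sesn1 higher (0.54), and Myc was lower (−0.32; means ± SD, n = 3, double-knockout first, limma adjusted p under 0.05 for each).

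Wildtype J774.1 cells held more of most of these mRNAs than BMDMs with control siRNA. The 2 tables were normalized separately, so levels are set side by side without a test. In the 3 wildtype J774.1 libraries with LPS, 35 of the 43 members were above all 6 control siRNA BMDM libraries, among them all 17 mitosis genes, 12 of 15 replication genes and 6 of 9 G1 genes. Of the 13192 genes in both tables with a mean of 1 TPM in either, 38.8% were above all 6. The median ratio of means over the members was 5.66 against BMDMs with LPS and 2.70 against BMDMs with vehicle. Exceptions below every control siRNA BMDM library were Pcna, at a mean of 246 TPM in wildtype J774.1 cells, against 413 TPM in BMDMs with LPS and 741 TPM in BMDMs with vehicle, Ccnd2, at 0.0364 TPM against 8.31 and 1.91 TPM, and Cdkn1b. Gmnn, Tk1, E2f1, E2f2 and Cdkn1a lay among the BMDM values, Cdkn1a at 452 TPM against 2294 TPM in BMDMs with LPS and 323 TPM with vehicle.

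**Figure D5:**
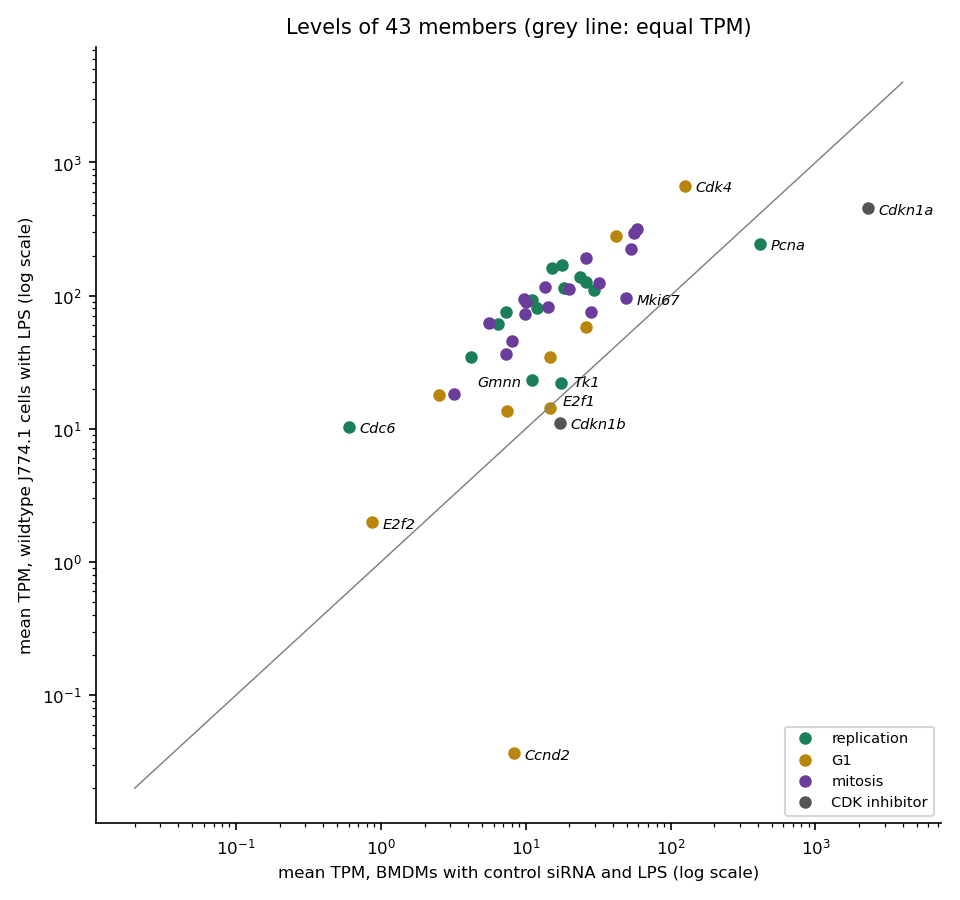
Mean TPM (n = 3) of the 43 members in wildtype J774.1 cells with LPS (vertical) against BMDMs with control siRNA and LPS (horizontal), both on log scales, coloured by role, with a grey line at equal TPM. Most members lie above the line; Ccnd2, Pcna, Cdkn1a, Cdkn1b and E2f1 lie on or below it.

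Pseudogene copies held little of these values, while overlapping genes could bear on 8 members. Rows named as pseudogenes of members held at most 1.48% of their member's TPM. The library kit was unstranded per the labels' protocols, and 8 members share exon sequence with another coding gene at 1 TPM or more in the GENCODE annotation of GRCm38. These are Ccna2, Ccnd1, Ccnd3, Ccne2, Cdc20, Cdk4, Mcm7 and Tk1, whose TPM could take in reads of the neighbour. The highest BMDM TPM of these neighbours was 36.1 for Exosc9 (Ccna2), 33.3 for LTO1 (Ccnd1), 7.92 for Bysl (Ccnd3) and 19.9 for Ints8 (Ccne2). It was 178 for Elovl1 (Cdc20), 98.7 for Tspan31 (Cdk4), 4.84 for Afmid (Tk1), and 19.6 for Ap4m1 and 91.9 for Cops6 (both Mcm7). The share of such reads in the members was not tested. Bub1 has no such overlap.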

How the data were processed

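RNA of 24 libraries was measured by poly(A) mRNA sequencing with an unstranded kit, per the labels' protocols. TPM values per gene were deposited by the authors, as gene-level scaled TPM from Salmon on mm39 per the file headers of the BMDM table; the header of the J774.1 table names neither unit nor build, and was read as TPM because each library sums to 999503 to 999526. The authors also deposited log2 fold changes, p-values and a signal column of mean normalized counts, per the file headers, and the submitters' processing notes name Salmon 1.9.0 and DESeq2 1.44.0; the signal column was not used. Replicate numbers 1, 3 and 4 of BMDMs are those of the titles.

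Log2(TPM + 1) was fitted, for genes that averaged 1 TPM or more over the samples of a fit, with limma 3.58.1 in R 4.3.3 (moderated variances with trend, robust), the 18 BMDM libraries in 1 model of 6 groups and the 6 J774.1 libraries alone, and p-values were Benjamini-Hochberg adjusted over all genes tested. All 43 members passed this minimum in the BMDM fit, and all but Ccnd2 did in the J774.1 fit. The fit was tested on simulated data with independent normal noise per library, which held no replicate effect and no shift of a whole library. Deviations of samples with the same replicate number correlated weakly, at −0.06 to 0.15 in BMDMs and −0.00 to 0.06 in J774.1 cells. A BMDM library matched best with its own number in another group in 64 of 90 cases, and a J774.1 library in 4 of 6. Each library had 3 candidates in the other group, so without pairing about 1 in 3 would match, and both counts lay above that share. Whether the numbers mark a pairing was not tested. The main fits used no block, so any effect of the replicate number stayed in the spread. With a block, calls over all genes between Ctbp2 siRNA and control siRNA went from 236 to 414 in LPS and from 69 to 155 in vehicle. Libraries of a group correlated at 0.9838 or more on the log2 scale. Alternatives were a pseudocount of 0.1, minimum means of 10 TPM or none, median-of-ratios scaling, a replicate block, fits of only the groups compared, and leaving out each library.

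The members, gene lists and tests were chosen with earlier results of these data known. Values per library are given for up to 4 members of each role with the largest change among those called in control siRNA BMDMs with LPS or in J774.1 cells, for members called in an siRNA comparison, and for Cdkn1a, Cdkn1b and Mki67; up to 3 called genes are named from each other list. Of 6 red cell markers, 0 were found by name in the BMDM table, so they say nothing on BMDMs. All 6 were found for J774.1 cells, with 0 at a mean of 1 TPM in either group.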

Additional observations from a re-analysis of the deposited data

How the results depend on the processing

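The count of members called between Ctbp2 siRNA and control siRNA in LPS, 1 as reported, was 0 with a minimum of 10 TPM (Bub1 lies under it), 0 when only the groups compared were fitted, and 2 with a replicate block, which added Top2a (−0.31, limma adjusted p = 0.0483). Leaving out each library in turn gave 0 to 1 members for that comparison, for Ctbp2 siRNA in vehicle (Mki67, −0.30, limma adjusted p = 0.0494, without control vehicle replicate 1) and for Ctbp1 siRNA in LPS. For LPS against vehicle it gave 37 to 39 members with control siRNA, 39 to 42 with Ctbp1 siRNA and 41 to 43 with Ctbp2 siRNA, and 24 to 27 in J774.1 cells. The block ended the J774.1 calls of Bub1 (limma adjusted p = 0.0534) and Cdkn1a (0.0714). Median-of-ratios scaling turned the sign of Tyms (0.09), Ccne1 (0.05), Ccnb1 (0.04) and Ube2c (0.10) with LPS under control siRNA, of Tyms (0.02) and Ube2c (0.05) under Ctbp1 siRNA, of Ccne1 (0.01) and Ube2c (0.12) under Ctbp2 siRNA, and of Mcm10 (−0.01) in J774.1 cells. E2f2 in J774.1 cells ranged over −0.11 to 0.01 without 1 library. Apart from the minimum of 10 TPM, the cause was not tested. Calls over all genes between Ctbp2 siRNA and control siRNA in LPS numbered 236 as reported, 132 with no minimum, 414 with the block and 4 with only those groups, and in vehicle 69, 45, 155 and 22 in the same order. For Ctbp1 siRNA in LPS they numbered 7, with 12 at a minimum of 10 TPM and 2 with only those groups. Leaving out 1 library gave 66 (without Ctbp2 siRNA LPS replicate 3) to 295 calls for Ctbp2 siRNA in LPS, 4 (without control vehicle replicate 3) to 105 (without control LPS replicate 4) in vehicle, 6 to 83 (without control LPS replicate 4) for Ctbp1 siRNA in LPS, and 5 (without Ctbp1 siRNA vehicle replicate 1) to 38 (without control LPS replicate 4) in vehicle, so the shares of all genes called in these comparisons rest on few libraries. Depth is unknown, so differences of the lowest members, such as Cdc6 and E2f2, carry counting error that these values do not show.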
